A study of Mus musculus with 9 samples.

Results

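Cholesterol synthesis and the handling of sterols were followed through 29 genes, taken by their symbols from a table that listed 52550 genes. All 29 were among the 13255 genes with enough counts to be tested. They were 8 genes of the mevalonate arm, 11 genes of the steps from squalene to cholesterol, 4 genes of sterol sensing, 4 genes of sterol transport and 2 genes that liver X receptors (LXRs) are known to induce. RNA was measured in micromass cultures, dense drops of cells dissociated from forelimbs of mouse embryos at embryonic day 12. Of 9 cultures, 3 received the caspase inhibitor Q-VD-OPH (OPH) at 100 µM for 6 days, 3 received the caspase inhibitor Z-VAD-FMK (FMK) at 100 µM for 6 days, and 3 received only DMSO, the solvent of the inhibitors. No strain, genotype or transgene is stated. All cultures shared a serum-containing medium that favours cartilage formation, with ascorbic acid and β-glycerol phosphate, and every second day it was replaced, inhibitor or DMSO included. By the labels, the cultures of a group are biological replicates, and nothing says whether embryos were pooled.

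Cells make cholesterol from acetyl-CoA through mevalonate, isoprenoid diphosphates, squalene and lanosterol. When sterol in the endoplasmic reticulum runs low, SCAP escorts the membrane-bound transcription factor SREBP2 to the Golgi, where proteases release its active part, which switches on genes of synthesis and uptake. INSIG proteins hold SCAP back when sterol is plentiful, and LXRs, activated by oxysterols, switch on genes of sterol export. In growing cartilage, cholesterol is also needed for the processing and reception of hedgehog signals.

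Transcripts of several cell types were present. All 15 cartilage markers found had counts in every library. Levels are given in CPM, counts relative to the scaled total of the library. Col2a1, which encodes type II collagen, was at 648 ± 244 CPM with OPH, 424 ± 38.6 CPM with FMK and 1333 ± 301 CPM with DMSO (SD, n = 3 each). The summed level of these markers was 1690 to 2816 CPM with OPH, 1770 to 1884 CPM with FMK and 3440 to 4862 CPM with DMSO. By the edgeR test described below, 11 of the 15 fell with FMK (73.3%, against 10.1% of all genes). With OPH 7 fell (46.7%, against 8.11%). Chad alone was higher with OPH, at 62.5 ± 19.1 CPM against 35.4 ± 11.8 CPM with DMSO, and was not called (adjusted p 0.140). The 18 macrophage genes summed to 233 to 272 CPM with OPH, 36.0 to 50.9 CPM with FMK and 1432 to 2726 CPM with DMSO, and all 18 were lower with each inhibitor than with DMSO. Mrc1, the mannose receptor of macrophages, had 33 counts with OPH, 3 counts with FMK and 2565 counts with DMSO over the 3 libraries of a group. The 13 adipocyte genes summed to 738 to 2853 CPM with OPH, 115 to 202 CPM with FMK and 486 to 2403 CPM with DMSO, and with FMK Cidec and Lep had 0 counts. Library 3 had the lowest adipocyte level in each group. In such bulk samples, fewer cells of a type and less RNA per cell cannot be told apart, and the part of these other cell types in the results that follow was not tested. Library totals were 5659789 to 6867350 counts.

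Known control letters were searched for in the promoters of the 29 genes. RefSeq entries (GRCm38.p6) matched 24 of the 29 genes, with 30 promoters of 300 bases, 250 before the start and 50 after it. The CCAAT box, a site of the factor NF-Y that often works beside SREBP2, was searched on both strands, where it reads ATTGG on the other strand. It was found in 21 of the 30 promoters (70.0%) and in 37.4% of all 32851 promoters. The sterol regulatory element, searched as TCACNCCAC on both strands, was found in the Hmgcs1 promoter alone of the 24 genes, and in 1.24% of all promoters. With its last letter left off, TCACNCCA, a form chosen after the sequences were seen and overlapping the first by construction, it was found in Hmgcs1, Msmo1 and Srebf2 and in 4.36% of all promoters. The DR4 element of LXRs, a direct repeat of AGGTCA with any 4 bases between, was in none of the 30 promoters and in 0.0152% of all promoters, which says only that these letters are not in the windows. A match describes letters and not a bound site. Shown are the bases upstream of the RefSeq start, up to the first base that GENCODE M21 puts in the gene, for Hmgcs1, which holds the element, Srebf2, which encodes SREBP2, Insig1, which feeds back on it, and Npc2, the gene with the largest change among the 29 with FMK. Capitals mark the CCAAT box or its reverse and the sterol regulatory element, whole or without its last letter.
Hmgcs1 promoter, chr13:119690101-119690350, plus strand: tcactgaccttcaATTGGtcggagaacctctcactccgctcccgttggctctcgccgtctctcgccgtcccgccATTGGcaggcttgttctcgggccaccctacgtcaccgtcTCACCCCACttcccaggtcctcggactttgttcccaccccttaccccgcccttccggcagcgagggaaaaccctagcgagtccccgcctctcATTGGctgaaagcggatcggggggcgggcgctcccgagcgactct
Srebf2 promoter, chr15:82147019-82147180, plus strand: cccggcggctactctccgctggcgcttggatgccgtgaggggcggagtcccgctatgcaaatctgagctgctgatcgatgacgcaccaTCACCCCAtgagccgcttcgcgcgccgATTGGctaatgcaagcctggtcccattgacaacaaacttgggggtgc
Insig1 promoter, chr5:28071162-28071362, plus strand: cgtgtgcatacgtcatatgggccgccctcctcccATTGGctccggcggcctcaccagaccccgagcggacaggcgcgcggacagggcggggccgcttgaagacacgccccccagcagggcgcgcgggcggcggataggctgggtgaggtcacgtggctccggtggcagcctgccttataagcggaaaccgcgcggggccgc
Npc2 promoter, chr12:84773153-84773362, minus strand: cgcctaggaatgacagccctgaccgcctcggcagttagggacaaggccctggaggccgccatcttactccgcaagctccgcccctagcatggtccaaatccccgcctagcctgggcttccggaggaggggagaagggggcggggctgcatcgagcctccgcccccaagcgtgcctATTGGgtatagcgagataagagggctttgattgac

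RNA of some genes of the pathway was higher with each inhibitor. In each comparison with DMSO, the larger number of the 29 did not pass the test, either without or with the block of library numbers. In the comparison of FMK with DMSO, 7 of 29 genes rose (24.1%), against 10.4% of all 13255 genes tested, namely Fdps, Fdft1, Cyp51, Msmo1, Insig2, Srebf2 and Npc2. None of the 29 fell by edgeR's quasi-likelihood test with Benjamini-Hochberg adjustment over all genes, nor by DESeq2 or limma-voom, while 1 of them, Ebp, was lower at an unadjusted p under 0.05. Among all genes 10.1% fell. In the comparison of OPH with DMSO, 4 of 29 genes rose (13.8%), against 8.6% of all genes, namely Cyp51, Hsd17b7, Srebf2 and Npc2, and Tmem97 alone fell, against 8.11% of all genes. Without the block of library numbers given below, these shares with OPH are near those of all genes. Cyp51, Srebf2 and Npc2 rose in both comparisons, which share the DMSO libraries. In this fit, which has no block, 19 of the 29 genes passed in no comparison, the one between the inhibitors included. Of these 19, Hmgcs1, Sqle, Lss, Insig1 and Abca1 passed in at least 1 comparison with the block.

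The median log2 fold change of the 29 genes was 0.26 with FMK and 0.22 with OPH, against medians of -0.0064 and -0.0025 over all genes in the same comparisons. With FMK, 12 of the 29 genes had all 3 libraries above all DMSO libraries, 2 (Scap and Abca1) had all below, and 15 overlapped. So 48.3% did not overlap, against 35.5% of all genes (17.4% above and 18.1% below). The test itself called 20.5% of all genes in either direction. With OPH, 5 genes lay wholly above DMSO, 4 (Mvk, Tm7sf2, Ebp and Tmem97) wholly below, and 20 overlapped. Thus 31.0% did not overlap, against 33.7% of all genes (16.6% above and 17.1% below). Of all genes, the test called 16.7% in either direction. Equal library numbers deviated together across groups. With the number as a block, 10 of the 29 genes rose (34.5%) and 1 fell (3.45%) with FMK, against 13.4% of all genes in each direction and 26.8% in either. With the same block, 9 rose (31.0%) and 1 fell (3.45%) with OPH, against 11.6% and 11.3% of all genes and 22.9% in either direction, so with the block the share that rose with OPH was not near that of all genes.

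**Figure D1:**
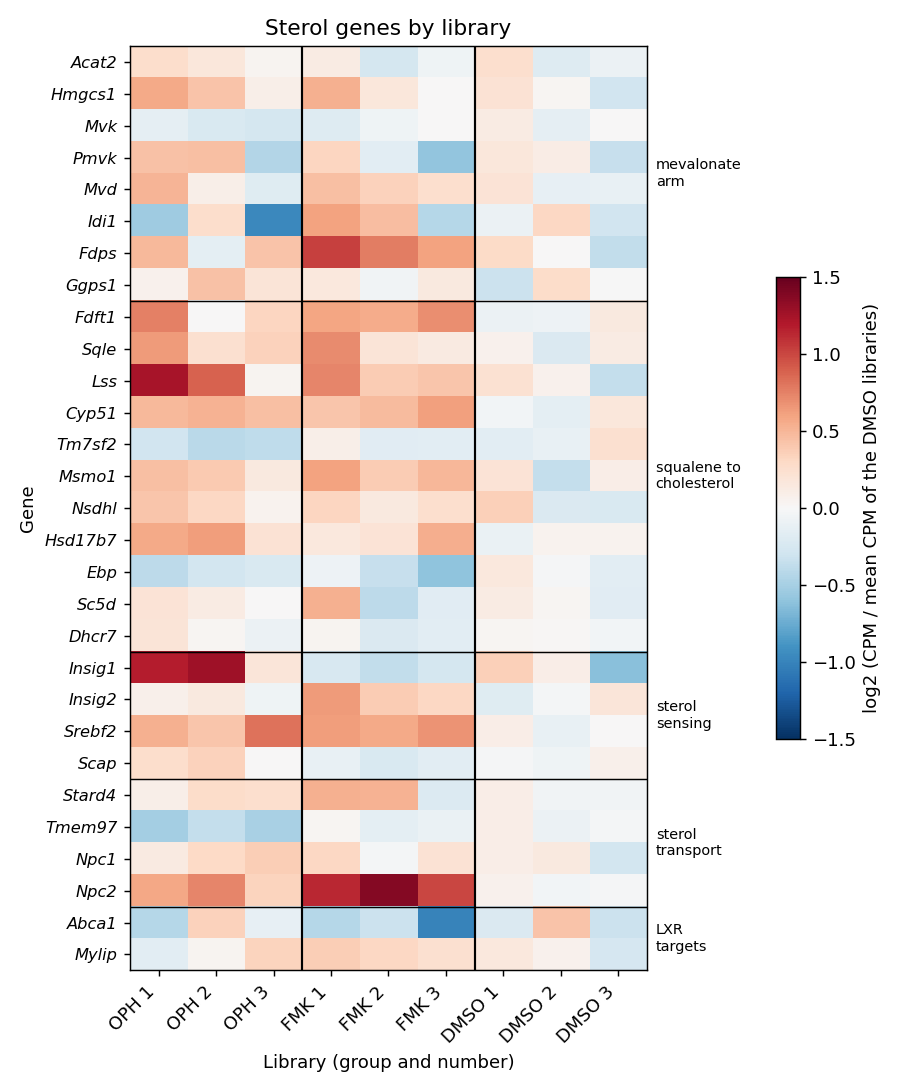
Level of each of the 29 sterol genes (rows, grouped by role) in each of the 9 libraries (columns), as log2 of its CPM over the mean CPM of the DMSO libraries. Red is above that mean and blue below it. Npc2, Cyp51 and Srebf2 are red in all 6 inhibitor libraries, while Insig1 is red in the OPH libraries and blue in the FMK libraries.

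In the mevalonate arm, Fdps was the gene that passed, and it did so with FMK, 1 of 8 genes (12.5%) against 10.4% of all genes. Fdps encodes farnesyl diphosphate synthase, which makes the last product shared by cholesterol and the isoprenoids that anchor proteins to membranes. Fdps RNA was 24.0, 15.5 and 23.0 CPM in the OPH libraries 1 to 3, 34.9, 29.2 and 26.1 CPM in the FMK libraries, and 21.0, 17.2 and 13.3 CPM in the DMSO libraries. All FMK libraries lay above all DMSO libraries, and the OPH libraries overlapped the DMSO libraries. Fdps rose with FMK by a log2 fold change of 0.81 ± 0.20 (SE), a 1.75-fold higher level with an adjusted p of 0.00785 by edgeR, and was 0.28 ± 0.20 with OPH against DMSO (adjusted p 0.411). Set against FMK, OPH gave a log2 fold change of -0.53, with a 95% interval of -0.95 to -0.11 and an adjusted p of 0.111, or of 0.0279 with the replicate block.

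Hmgcs1, which makes HMG-CoA at the entry of the arm and carries the sterol regulatory element shown above, had the highest level of the arm in each group. It was 198, 179.7 and 142 CPM with OPH, 193, 150.2 and 135 CPM with FMK, and 155, 136 and 109 CPM with DMSO. Library 1 was the highest and library 3 the lowest of each group, and the groups overlapped. Against DMSO, its log2 fold change was 0.26 ± 0.17 with FMK (adjusted p 0.369) and 0.38 ± 0.17 with OPH (adjusted p 0.191). With the replicate block it passed in both, at 0.25 with an adjusted p of 0.0204 for FMK and at 0.38 with an adjusted p of 0.000833 for OPH.

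The other genes of the arm passed in none of the 3 comparisons. Acat2, the cytosolic thiolase that condenses acetyl-CoA, averaged 95.6 ± 7.41 CPM with OPH, 82.0 ± 10.6 CPM with FMK and 85.5 ± 14.1 CPM with DMSO. Ggps1, which makes geranylgeranyl diphosphate, averaged 52.0 ± 7.05 CPM with OPH, 46.7 ± 3.60 CPM with FMK and 43.9 ± 9.02 CPM with DMSO. The kinases of mevalonate and phosphomevalonate, Mvk and Pmvk, and the decarboxylase Mvd averaged between 19.9 and 29.2 CPM in the 3 groups. Mvd alone of these had no overlap between FMK and DMSO libraries, at 23.7 to 27.2 CPM against 18.2 to 23.0 CPM. Its log2 fold change was 0.35. With OPH, Mvk lay wholly below DMSO, at 24.3 to 26.5 CPM against 26.6 to 31.7 CPM, with a log2 fold change of -0.21. Idi1, the isomerase of isopentenyl diphosphate, was the lowest of the 29 genes at 1.98 CPM with OPH, 3.00 CPM with FMK and 2.47 CPM with DMSO. Summed over the 8 genes, the arm stood at 417 ± 48.6 CPM with OPH, 395 ± 51.6 CPM with FMK and 354 ± 40.2 CPM with DMSO, with overlapping libraries.

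Between squalene and cholesterol, 3 of 11 genes rose with FMK (27.3%, against 10.4% of all genes) and 2 with OPH (18.2%, against 8.6%). Fdft1, squalene synthase, commits farnesyl diphosphate to sterols. Its level was 24.0, 14.3 and 17.8 CPM with OPH, 21.5, 20.9 and 23.1 CPM with FMK, and 13.3, 13.5 and 15.8 CPM with DMSO. The FMK libraries were close together and wholly above DMSO, and the OPH libraries overlapped both other groups. Fdft1 rose 1.53-fold with FMK, a log2 fold change of 0.62 ± 0.20 with an adjusted p of 0.0334 in the edgeR fit. That call was lost on library size alone (adjusted p 0.0717), in libraries 1 and 2 alone (0.0753) and on leaving out any library of either group but DMSO 3. Its gene shares 774 bases with Ctsb on the opposite strand, and Ctsb had log2 fold changes of -0.59 with FMK (adjusted p 0.0654) and -0.94 with OPH (adjusted p 0.0126). The use of strand in counting is not given in the sources used here, so reads of the pair may not be told apart.

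Cyp51, the demethylase of lanosterol, rose with each inhibitor. It stood at 128, 131 and 125 CPM with OPH, 122, 127 and 139 CPM with FMK, and 88.5, 82.2 and 103 CPM with DMSO. All 6 inhibitor libraries lay above all DMSO libraries. Its log2 fold change was 0.49 ± 0.10 with OPH (1.4-fold, adjusted p 0.00204) and 0.50 ± 0.10 with FMK (1.42-fold, adjusted p 0.00115). The gene passed under all 18 alternatives in both comparisons. Akap9, which shares 166 bases with Cyp51 on the opposite strand, did not pass in either comparison. Its log2 fold change was 0.50 for OPH (adjusted p 0.0735), near that of Cyp51, and 0.11 for FMK (adjusted p 0.730). As for Fdft1 and Ctsb, reads of the pair may not be told apart.

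Msmo1 and Hsd17b7 act after CYP51, in the removal of the methyl groups at carbon 4 of the sterol ring. Msmo1, the oxidase of these groups, was 90.2, 86.8 and 72.8 CPM with OPH, 100.1, 85.5 and 92.9 CPM with FMK, and 75.9, 51.3 and 70.6 CPM with DMSO. Only the FMK libraries lay wholly above DMSO, where library 2 was the low one. Msmo1 rose 1.41-fold with FMK (log2 fold change 0.49 ± 0.13, adjusted p 0.0146), which was lost without DMSO library 2 (adjusted p 0.0725) or FMK library 1 (adjusted p 0.0622). With OPH it was 0.34 ± 0.13 (adjusted p 0.103), and 0.35 with an adjusted p of 0.0205 with the replicate block.

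Hsd17b7, the ketosteroid reductase that completes each round of that removal, was 34.0, 35.3 and 26.5 CPM with OPH, 25.4, 26.5 and 33.2 CPM with FMK, and 21.3, 23.7 and 23.6 CPM with DMSO. Both inhibitor groups lay wholly above DMSO, with library 3 the low one of the OPH group and the high one of the FMK group. The gene rose 1.4-fold with OPH (log2 fold change 0.48 ± 0.16, adjusted p 0.0417), and was 0.31 ± 0.16 with FMK (adjusted p 0.197). The OPH call was lost in DESeq2 (adjusted p 0.0520) and without OPH library 1 (adjusted p 0.133), OPH library 2 (adjusted p 0.166) or any 1 of the DMSO libraries, where adjusted p was 0.0752 to 0.144. It was also lost without FMK library 2 (adjusted p 0.0511).

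Lss and Sqle, which cyclise and epoxidise squalene, did not pass in the fit of all 9 libraries without the replicate block and passed with it in both comparisons with DMSO. Lss was 45.1, 35.5 and 19.7 CPM with OPH, 31.9, 24.9 and 25.5 CPM with FMK, and 22.5, 20.1 and 14.9 CPM with DMSO. OPH library 3 lay within the DMSO range, and the FMK libraries lay above it. Against DMSO, Lss had a log2 fold change of 0.81 ± 0.27 with OPH (adjusted p 0.0618, or 0.000692 with the block) and 0.52 ± 0.27 with FMK (adjusted p 0.221, or 0.0182 with the block). Without OPH library 3, the OPH value was 1.07 with an adjusted p of 0.00121. Lss also passed with OPH in DESeq2 and in libraries 1 and 2 alone, and with either inhibitor with no low-count filter. Sqle averaged 62.0 ± 9.13 CPM with OPH, 60.1 ± 13.8 CPM with FMK and 46.5 ± 5.77 CPM with DMSO, with both inhibitor groups wholly above DMSO. Its log2 fold change was 0.42 with OPH (adjusted p 0.0892, or 0.0102 with the block) and 0.37 with FMK (adjusted p 0.121, or 0.0231 with the block). Sqle also passed with either inhibitor with no low-count filter, and with OPH when only those groups were fitted or without FMK library 1.

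The remaining 5 enzymes passed in none of the 3 comparisons. Ebp, the sterol isomerase, averaged 37.6 ± 2.14 CPM with OPH, 36.9 ± 6.79 CPM with FMK and 46.3 ± 5.21 CPM with DMSO, with log2 fold changes of -0.30 and -0.32 against DMSO for OPH and FMK (adjusted p 0.178 and 0.130). With FMK it passed as lower on library size alone, at -0.43 with an adjusted p of 0.0398, and also without FMK library 1. Dhcr7, the last reductase, averaged 20.0 ± 1.96 CPM with OPH, 17.9 ± 1.76 CPM with FMK and 19.3 ± 0.52 CPM with DMSO. Sc5d, the desaturase before it, averaged 33.3 ± 2.40 CPM, 31.8 ± 11.3 CPM and 30.8 ± 3.10 CPM in OPH, FMK and DMSO cultures. Nsdhl, the dehydrogenase of the carbon-4 steps, averaged 49.2 ± 6.31 CPM, 48.3 ± 2.95 CPM and 40.9 ± 10.0 CPM in OPH, FMK and DMSO cultures. Its log2 fold change against DMSO was 0.27 with OPH and 0.24 with FMK (adjusted p 0.274 and 0.316), and without DMSO library 1 it passed in both (adjusted p 0.0378 and 0.0413). Tm7sf2, a sterol reductase, was low in each group at 5.29 CPM with OPH, 6.42 CPM with FMK and 6.77 CPM with DMSO, and shares 532 bases with Vps51 on the same strand. Summed, the 11 genes stood at 503 ± 45.1 CPM with OPH, 501 ± 39.2 CPM with FMK and 404 ± 32.8 CPM with DMSO, with both inhibitor groups wholly above DMSO.

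**Figure D2:**
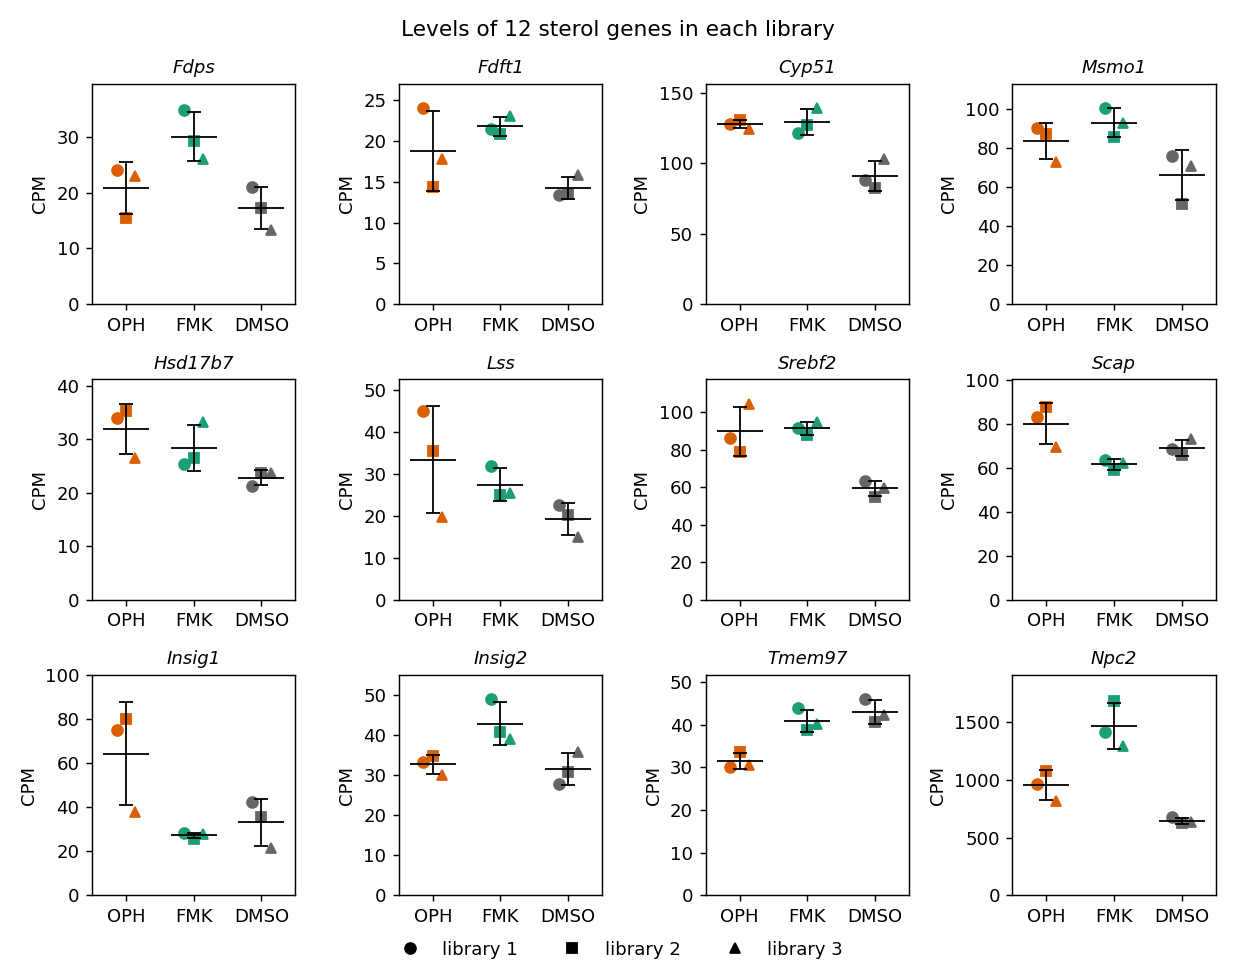
CPM of 12 sterol genes in each library, with circles, squares and triangles for libraries 1, 2 and 3, and bars for the mean ± SD of 3 libraries per group. Cyp51, Srebf2 and Npc2 lie above DMSO in all inhibitor libraries, Tmem97 is low in the OPH libraries, and Insig1 is spread widely within the OPH group.

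Among the genes of sterol sensing, Srebf2 itself rose with both inhibitors. Srebf2 (chromosome 15, 82147181 to 82205379, plus strand, GRCm38, GENCODE M21) was 86.1, 78.9 and 104 CPM with OPH, 91.6, 88.0 and 94.9 CPM with FMK, and 63.3, 54.9 and 59.7 CPM with DMSO. No inhibitor library reached down to the DMSO range. Srebf2 rose by a log2 fold change of 0.60 ± 0.11 with OPH (1.51-fold, adjusted p 0.00113) and 0.62 ± 0.11 with FMK (1.54-fold, adjusted p 0.000554), and both calls held under all 18 alternatives. RNA of Srebf2 does not tell how much SREBP2 is processed. Scap was 83.4, 88.0 and 69.8 CPM with OPH, 63.9, 59.1 and 62.2 CPM with FMK, and 68.6, 66.0 and 73.1 CPM with DMSO. Its log2 fold change against DMSO was 0.22 with OPH (adjusted p 0.196) and -0.17 with FMK (adjusted p 0.324).

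The products of the INSIG genes retain SCAP in the endoplasmic reticulum. Insig2 was 33.3, 34.8 and 30.2 CPM with OPH, 48.9, 40.8 and 38.9 CPM with FMK, and 27.8, 30.9 and 35.7 CPM with DMSO. It rose with FMK, whose libraries were wholly above the other groups, by a log2 fold change of 0.45 ± 0.14 (1.36-fold, adjusted p 0.0317). With OPH it was 0.06 (adjusted p 0.852). The FMK call was lost on library size alone (adjusted p 0.0914) and without DMSO library 1 (0.135), DMSO library 2 (0.0912), FMK library 1 (0.145) or FMK library 2 (0.0517).

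Insig1, a known SREBP target (chromosome 5, 28071363 to 28078662, plus strand, GRCm38, GENCODE M21), was 75.3, 80.3 and 37.7 CPM with OPH, 28.2, 25.8 and 27.7 CPM with FMK, and 42.5, 35.7 and 21.6 CPM with DMSO. The OPH libraries 1 and 2 were the high ones, OPH library 3 lay within the DMSO range, and the FMK libraries were nearly level. With OPH the log2 fold change was 0.96 ± 0.32, with a 95% interval of 0.20 to 1.71 and an adjusted p of 0.0920 without the block. Within library numbers 1, 2 and 3, the log2 ratio of OPH over DMSO was 0.82, 1.17 and 0.80, and with the replicate block the change was 0.94 with an adjusted p of 0.000540. Without OPH library 3 it was 1.23 (adjusted p 0.0012), and DESeq2 gave an adjusted p of 0.00293. With FMK the log2 fold change was -0.29 ± 0.34 (adjusted p 0.632), with within-number log2 ratios of -0.59, -0.47 and 0.36 for numbers 1, 2 and 3. In the same libraries 1, 2 and 3, the 13 adipocyte genes summed to 2356, 2853 and 738 CPM with OPH, 197, 202 and 115 CPM with FMK, and 2403, 2110.5 and 486 CPM with DMSO. Their part in the Insig1 values was not tested.

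Of the transport genes, Npc2 carried both the highest level of the 29 genes and the widest change from DMSO with FMK. NPC2 binds cholesterol inside lysosomes and hands it to NPC1 for export. Npc2 (chromosome 12, 84754562 to 84773152, minus strand, GRCm38, GENCODE M21) was 962, 1074 and 814 CPM with OPH, 1415, 1677 and 1294 CPM with FMK, and 674, 625 and 636 CPM with DMSO. The 3 groups did not overlap. Npc2 rose with OPH by a log2 fold change of 0.56 ± 0.10 (1.47-fold, adjusted p 0.00195) and with FMK by 1.18 ± 0.11 (2.27-fold, adjusted p 1.33e-06), and both calls held under all 18 alternatives. Since a 3′-end library yields about a tag per transcript whatever its length, levels were set side by side. This leaves out any loss of multi-mapped reads, whose treatment is not given. Npc2 made up 40.7% of the summed CPM of the 29 genes with OPH, 52.5% with FMK and 36.0% with DMSO. The other 28 genes summed to 1383 CPM with OPH, 1322 CPM with FMK and 1145 CPM with DMSO.

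Npc1 encodes the membrane partner of NPC2 and passed in no comparison. Its level averaged 54.9 ± 4.49 CPM with OPH, 51.3 ± 6.10 CPM with FMK and 45.6 ± 6.97 CPM with DMSO, with log2 fold changes of 0.27 (95% interval -0.015 to 0.55) for OPH and 0.17 (-0.11 to 0.46) for FMK against DMSO. Npc1 shares 967 bases with Rmc1 on the opposite strand. Stard4, a carrier of cholesterol in the cytosol, averaged 22.0 ± 1.59 CPM with OPH, 23.8 ± 6.32 CPM with FMK and 19.0 ± 1.13 CPM with DMSO. It passed in no comparison of all libraries, but passed as higher with FMK without FMK library 3 (adjusted p 0.0338). Tmem97, the sigma-2 receptor, which binds NPC1, was 30.2, 33.6 and 30.6 CPM with OPH, 43.8, 38.7 and 40.2 CPM with FMK, and 46.1, 40.6 and 42.2 CPM with DMSO. The OPH libraries were wholly below the others, while FMK and DMSO overlapped. Tmem97 fell with OPH by 0.45 ± 0.12 on the log2 scale (adjusted p 0.0183), and was -0.07 with FMK (adjusted p 0.753). The OPH call was lost without DMSO library 1 (adjusted p 0.0842), OPH library 1 (0.0667) or OPH library 3 (0.0597), and in libraries 1 and 2 alone (0.0699).

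Of the LXR targets, Abca1 encodes the exporter that loads cholesterol onto apolipoprotein particles. Abca1 was 26.9, 46.2 and 33.3 CPM with OPH, 26.9, 28.9 and 18.2 CPM with FMK, and 31.2, 48.6 and 29.004 CPM with DMSO. FMK lay wholly below DMSO, by narrow gaps, and OPH overlapped both. With FMK the log2 fold change was -0.55 ± 0.26 (adjusted p 0.182), and -0.54 with an adjusted p of 0.00839 with the replicate block. With OPH it was -0.03 (adjusted p 0.966). Mylip, a ubiquitin ligase that degrades lipoprotein receptors, averaged 52.4 ± 9.05 CPM with OPH, 61.2 ± 2.67 CPM with FMK and 49.4 ± 6.94 CPM with DMSO. Its log2 fold change was 0.31 with FMK (adjusted p 0.127) and 0.08 with OPH (adjusted p 0.763).

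The inhibitors were compared with each other as 1 pair, at the same dose and time. Both carry a valine and aspartate core. Z-VAD-FMK has an alanine between these residues, a benzyloxycarbonyl cap and a fluoromethyl ketone, and Q-VD-OPH has a quinoline cap and a difluorophenoxymethyl ketone. Of the 29 genes, 1 was higher with OPH than with FMK (3.45%), against 4.2% of all genes, and 1 was lower, against 4.66%, so the shares are near those of all genes. The median log2 fold change of the 29 was 0.02, and that of all genes 0.0084. Npc2 was lower with OPH, by a log2 fold change of -0.62 ± 0.10 (0.65-fold, adjusted p 0.00209). Scap was higher with OPH by 0.38 ± 0.11 (1.3-fold, adjusted p 0.0332), with OPH library 3 the nearest to the FMK range. The Scap call was lost without any 1 of the FMK libraries (adjusted p 0.0631 to 0.126), OPH library 1 (0.110) or OPH library 2 (0.159).

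Insig1 had the widest difference between the inhibitors, with no overlap of their libraries. The log2 fold change of OPH over FMK was 1.24 ± 0.33, with a 95% interval of 0.48 to 2.01 and an adjusted p of 0.0601. The ratio was 1.42, 1.64 and 0.45 on the log2 scale within numbers 1, 2 and 3. With the replicate block the change was 1.19 with an adjusted p of 0.000131, and without OPH library 3 it was 1.51 with an adjusted p of 0.000845. Insig2 had -0.39, with an interval of -0.68 to -0.09 (adjusted p 0.0969), and Tmem97 had -0.38, with an interval of -0.64 to -0.11 (adjusted p 0.0689, or 0.0433 with the block). Abca1 had 0.52 ± 0.26 (adjusted p 0.272, or 0.0199 with the block). For Cyp51 the difference was -0.02, with an interval of -0.22 to 0.19, and for Srebf2 it was -0.03, with an interval of -0.26 to 0.20. With the block, 3 genes were higher and 3 lower with OPH than with FMK, against 7.78% and 8.36% of all genes and 16.1% in either direction. The libraries of OPH and FMK overlapped for 22 of the 29 genes, and 24.1% did not overlap, against 27.1% of all genes (13.9% with OPH above and 13.3% with OPH below). The test called 8.86% of all genes in either direction.

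**Figure D3:**
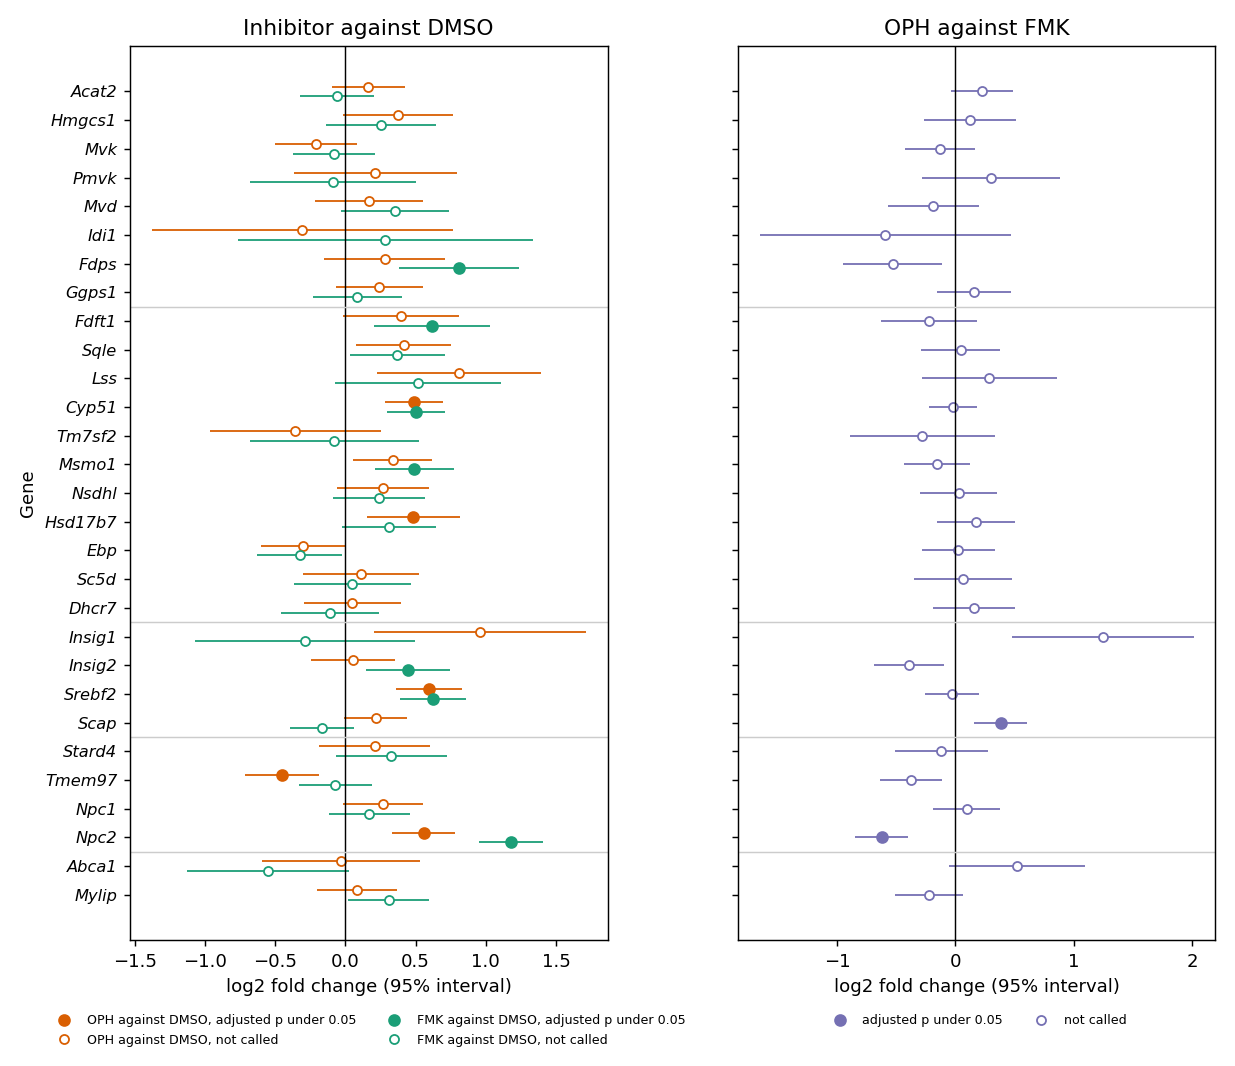
Log2 fold change of each sterol gene with its 95% interval, for OPH and FMK against DMSO (left) and for OPH against FMK (right), with filled points for an adjusted p under 0.05 by edgeR. Cyp51 and Srebf2 have nearly equal values for the 2 inhibitors, Npc2 is higher with FMK, and the Insig1 intervals are wide.

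Other genes of sterol metabolism were called at shares near those of all genes. Of 31 further sterol genes, 2 rose (6.45%) and 4 fell (12.9%) with FMK, against 10.4% and 10.1% of all genes. With OPH 2 rose (6.45%) and 3 fell (9.68%), against 8.6% and 8.11%, and 1 was higher with OPH than with FMK (3.23%, against 4.2%). The 3 comparisons had median log2 fold changes of 0.03, 0.06 and -0.01. Stard5, a sterol-binding START protein, was 28.0, 25.0 and 30.2 CPM with OPH, 25.3, 30.3 and 28.1 CPM with FMK, and 19.4, 13.7 and 12.5 CPM with DMSO. All inhibitor libraries lay above DMSO, and Stard5 rose 1.82-fold with OPH (adjusted p 0.00245) and 1.84-fold with FMK (adjusted p 0.0017). Mbtps1, the site-1 protease that cuts SREBPs in the Golgi, was 238, 241 and 248 CPM with OPH, 211, 227 and 229 CPM with FMK, and 272, 293 and 323 CPM with DMSO. Here all inhibitor libraries lay below DMSO, and Mbtps1 fell by 0.29 on the log2 scale with OPH (adjusted p 0.0210) and by 0.41 with FMK (adjusted p 0.00136).

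With FMK, the mitochondrial thiolase gene Acat1 fell by 0.63 ± 0.12 on the log2 scale (adjusted p 0.00184), and Ch25h, which makes 25-hydroxycholesterol, rose by 1.33 ± 0.34 (adjusted p 0.0095). Acat1 with OPH also lay wholly below DMSO, at -0.36 ± 0.12 (adjusted p 0.0602 by edgeR). There it passed as lower under 6 of the 18 alternatives, the replicate block included. Ch25h was not called in libraries 1 and 2 alone (adjusted p 0.0683). It was low, at 3.95 to 6.54 CPM with OPH, 7.17 to 9.54 CPM with FMK and 2.76 to 4.35 CPM with DMSO. With OPH, Osbp, an oxysterol-binding exchanger at the Golgi, fell by 0.54 ± 0.13 on the log2 scale (adjusted p 0.00806). Gramd1b, which moves cholesterol from the plasma membrane to the endoplasmic reticulum, averaged 20.2 CPM with OPH, 9.90 CPM with FMK and 12.5 CPM with DMSO. It was higher with OPH than with DMSO by 0.70 ± 0.19 (adjusted p 0.0181) and higher than with FMK by 1.03 ± 0.20 (adjusted p 0.00325), with no overlap in either. Nr1h3, which encodes LXRα and is also expressed by macrophages and adipocytes, was named after its values were seen. Its level was 1.74 to 4.41 CPM with OPH, 0.92 to 2.63 CPM with FMK and 3.05 to 8.69 CPM with DMSO, and it fell by 1.92 ± 0.53 on the log2 scale with FMK (adjusted p 0.0150). This call was lost without DMSO library 1 or 2 or FMK library 1 or 3, with an adjusted p of up to 0.0816. The other LXR gene, Nr1h2, averaged 38.6 CPM with OPH, 42.1 CPM with FMK and 34.2 CPM with DMSO. Its inhibitor libraries lay wholly above DMSO but it was not called. Its log2 fold change was 0.17 with OPH (adjusted p 0.433) and 0.30 with FMK (adjusted p 0.121). The calls of Stard5, Acat1 and Osbp, of Mbtps1 with FMK and of Gramd1b against FMK held under all 18 alternatives. With OPH against DMSO, Mbtps1 was lost without DMSO library 3 or OPH library 1 or 2 (adjusted p up to 0.106), and Gramd1b without DMSO library 3 or OPH library 2 or 3. In libraries 1 and 2 alone, both were lost, at an adjusted p of 0.0812 for Mbtps1 and 0.116 for Gramd1b.

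Fatty acid synthesis is the branch under the related factor SREBP1. Of 14 genes, 1 fell with FMK against DMSO (7.14%, against 10.1% of all genes), and 5 were higher with OPH than with FMK (35.7%, against 4.2% of all genes). With OPH against DMSO, 0 passed in edgeR or limma-voom and 1 in DESeq2, while 5 were higher at an unadjusted p under 0.05. With the replicate block 3 were higher, against 11.6% of all genes. Srebf1, which encodes SREBP1, was 81.1, 77.5 and 68.5 CPM with OPH, 43.0, 39.3 and 55.2 CPM with FMK, and 84.1, 73.5 and 50.8 CPM with DMSO. It fell by 0.60 ± 0.17 on the log2 scale with FMK against DMSO (adjusted p 0.0271) and was higher by 0.73 ± 0.17 with OPH than with FMK (adjusted p 0.0210). Fasn, fatty acid synthase, was 149, 194 and 95.7 CPM with OPH, 69.9, 61.3 and 76.2 CPM with FMK, and 99.2, 108 and 89.3 CPM with DMSO. OPH lay wholly above FMK, with a log2 difference of 1.08 ± 0.24 (adjusted p 0.0302). Fasn with FMK lay wholly below DMSO, at -0.52 ± 0.24 (adjusted p 0.188 by edgeR), and passed as lower under 6 of the 18 alternatives. With OPH it was 0.57 ± 0.23 against DMSO (adjusted p 0.157), and passed as higher under 4. Acaca and Me1, which supply malonyl-CoA and NADPH, were higher with OPH than with FMK by 0.56 ± 0.16 (adjusted p 0.0311) and 0.52 ± 0.11 (adjusted p 0.00737). Between the inhibitors, Me1 held under all 18 alternatives. Against DMSO, Me1 was 0.32 ± 0.11 with OPH (adjusted p 0.0593 by edgeR), and passed as higher under 6 alternatives, the replicate block included. With FMK it was -0.20 ± 0.11 (adjusted p 0.243), and passed as lower under 2. Between the inhibitors, Srebf1 was lost without FMK or OPH library 1 or 2 (adjusted p up to 0.0952), and Acaca without FMK library 2 or 3 or OPH library 1 or 2 (up to 0.136). Fasn was lost by limma-voom, with only those groups fitted, and without any 1 of the FMK libraries, OPH library 1 or DMSO library 1 or 3 (up to 0.109). Srebf1 against DMSO was lost without DMSO or FMK library 1 or 2, and with only those groups fitted (up to 0.119). With OPH against FMK the count was 8 of 14 with the replicate block, against 7.78% of all genes. It was 3 by limma-voom, and 1 to 8 on leaving out 1 library. Shares of all genes by limma-voom, by DESeq2 or on leaving out 1 library are not given. The 14 genes summed to 2028, 2093 and 1362 CPM in OPH libraries 1 to 3, 1303, 1124 and 1257 CPM in FMK libraries, and 1511, 1242 and 1206 CPM in DMSO libraries. OPH library 3 was the low one here as for the adipocyte genes, whose part was not tested.

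**Figure D4:**
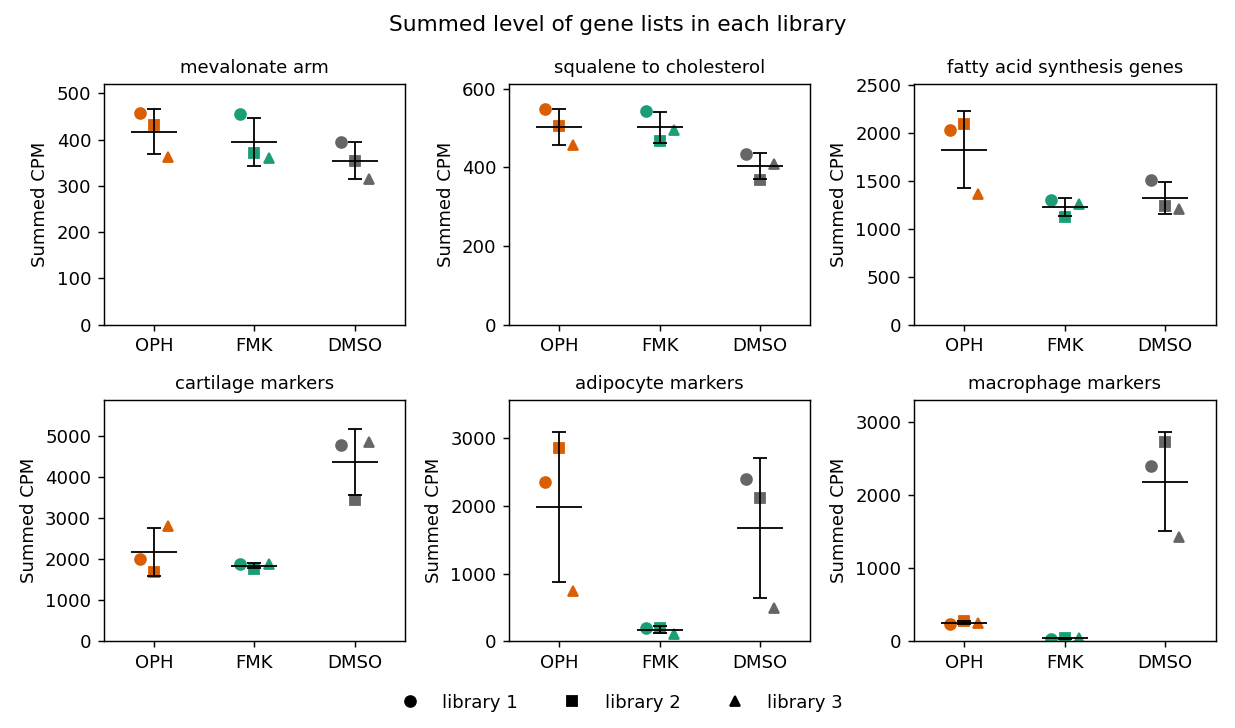
Summed CPM of 6 gene lists in each library, with symbols for the library number and bars for the mean ± SD of 3 libraries per group. The sum of the squalene-to-cholesterol genes, though not each gene, is higher in all inhibitor libraries than with DMSO. Adipocyte markers are low with FMK and in library 3 of the OPH and DMSO groups, and macrophage markers are low with both inhibitors.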

How the data were processed

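RNA was measured in 9 libraries of 3 groups from 3′-end tags of polyadenylated RNA. The authors deposited raw counts per gene and library, and summed counts per group that equalled the sums of their libraries for 3 of 3 groups. The submitters' processing notes name mm10, STAR, cutadapt, FastQC, MultiQC and DESeq2. How strand and multi-mapped reads were treated in counting, and by which program, is not given in the sources consulted, so genes that overlap others are uncertain. From the table, 99 spike-in rows with 1 count in all were left out. GENCODE M21 held 52403 of the identifiers, 50566 of them with the start that the table gives.

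Counts were tested with edgeR 4.0.16 (limma 3.58.1, R 4.3.3): filterByExpr, TMM, 1 coefficient per group over all 9 libraries, robust quasi-likelihood F test, two-sided, Benjamini-Hochberg adjustment over 13255 genes, threshold 0.05. The common dispersion was 0.0243. CPM are relative to the TMM-scaled library size. Without TMM, the all-gene median log2 fold change was -0.11 (FMK against DMSO) and 0.12 (OPH against FMK), so changes are stated relative to TMM. An exact permutation test of 3 against 3 libraries cannot give a p under 0.1. Libraries of a group differed beyond counting error, with chi-square values of 5.67 to 14.2 per degree of freedom. The test was tried on simulated data with the same dispersion for all genes and no shared effect of library number. That trial does not cover the wider spread of single genes or the effect of library number.

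Library numbers were checked as pairs. Deviations from the group means correlated at 0.102 to 0.344 in 9 of 9 pairs of equal number. The other pairs had -0.275 to 0.0147. So the numbers pair the samples, and for the 29 genes values with the number as a block are given where they change a call. The pairing comes from these correlations, not from the labels. The 29 genes, the other lists and the rules were chosen with earlier results of these data known. Full values were given for members called in at least 1 comparison, and from each other list up to 4 called genes with the smallest p per comparison were named. Alternatives were another scaling, other filters, DESeq2 1.42.0, limma-voom, the replicate block, only the groups compared, libraries 1 and 2 alone, and leaving out each library in turn. Promoters came from RefSeq (GRCm38.p6). Promoters of Fdps, Fdft1, Sqle, Stard4 and Npc1 were not analysed here.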

Additional observations from a re-analysis of the deposited data

How the results depend on the processing

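Within a comparison, none of the 29 genes or the 12 other genes followed that was called there under any setting changed sign under the alternatives run, and the median log2 fold change of the 29 genes was -0.035 to 0.13 with OPH against FMK. On leaving out 1 library, all genes called numbered 1979 to 2667 with FMK and 1486 to 2416 with OPH against DMSO. With OPH against FMK, 1175 genes were called without the block, 2139 with it, and 571 to 1386 on leaving out 1 library (571 without OPH 2, 709 without FMK 2, 712 without FMK 1). Of the 29 genes, 7 rose with FMK, and 4 to 7 on leaving out 1 library (4 without DMSO 2 or FMK 1). The count that fell with FMK was 0, and 1 on library size alone (Ebp), with no low-count filter (Abca1), with the replicate block (Abca1) and in libraries 1 and 2 alone (Insig1), and 0 to 1 on leaving out 1 library. With OPH 4 rose, 9 with no low-count filter, 9 with the replicate block, 7 in libraries 1 and 2 alone, and 3 to 6 on leaving out 1 library. The count that fell with OPH was 1, 0 in libraries 1 and 2 alone, and 0 to 1 on leaving out 1 library (0 without DMSO 1, OPH 1 or OPH 3). With OPH against FMK, 1 was higher, 2 on library size alone, 3 with no low-count filter, 2 by DESeq2, 3 with the replicate block, 2 with only those groups fitted, 2 in libraries 1 and 2 alone, and 0 to 2 on leaving out 1 library. Lower with OPH than with FMK was 1, 2 with no low-count filter, 3 with the replicate block, and 1 on leaving out any library. Shares of all genes in each direction are given above for the fit as written and for the block. Under the other settings they are not given, so changes in these counts are not a result about the 29 genes. The causes were not tested. The replicate block changed no call of the 29 genes other than those given beside the genes. Depth limits the precision of the lowest genes: the 95% interval of Idi1 ran from -1.38 to 0.77 with OPH and from -0.76 to 1.34 with FMK against DMSO.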

Other observations

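Of 14 genes that use farnesyl or geranylgeranyl diphosphate or its derivatives, Fnta, the shared subunit of the protein prenyltransferases, was the one that passed, with each inhibitor (7.14%, against 8.11% of all genes that fell with OPH and 10.1% with FMK). It was 154, 135 and 145 CPM with OPH, 134, 152 and 135 CPM with FMK, and 185, 189 and 184 CPM with DMSO. All inhibitor libraries lay below DMSO, and Fnta fell by 0.36 ± 0.09 on the log2 scale with OPH (adjusted p 0.00763 by edgeR) and by 0.40 ± 0.09 with FMK (adjusted p 0.00247). The OPH call was lost without OPH library 2 (adjusted p 0.0518). Library 3 was the lowest of its group for 17 of the 29 sterol genes with OPH, 12 with FMK and 13 with DMSO, library 2 for 5, 14 and 11, and library 1 for 7, 3 and 5 in the same order of groups. In all 3 groups library 3 was the lowest for Hmgcs1, Pmvk and Idi1, and library 2 for Srebf2. The 13 skeletal muscle genes had their highest summed level in library 3 of each group, at 799 CPM with OPH, 602 CPM with FMK and 944 CPM with DMSO.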
